A study of Mus musculus with 16 samples.

Results

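Interferon-stimulated genes are the genes that cells switch on after an interferon signal. A list of 37 such genes of the mouse was followed through cardiomyocytes with and without the G protein-coupled estrogen receptor (GPER), and 32 of the 37 could be read from a probe set that the annotation used here ties to that gene alone, among 17097 such genes in all. Listed genes were matched by gene symbol without a filter on expression, but the list was chosen with earlier results of these data known. Each gene was represented by the probe set with its highest mean over the 16 arrays. Isg15, Oas1a, Bst2, Tap1 and Ifi44 were not analysed here.

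The arrays were Affymetrix GeneAtlas MG-430 PM, 1 for each mouse, with 4 mice in each of 4 groups, namely female intact, female GPER-knockout (GPER KO), male intact and male GPER KO. The intact animals were wild type for GPER, and the deletion is described in the study as restricted to cardiomyocytes, with the driver not given in the sources used here. Every animal is labelled 15 weeks of age, whereas the methods give an older age. The cells came from collagenase-perfused hearts followed by straining and a slow spin, which enriches cardiomyocytes without sorting them.

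Interferons bind receptors at the cell surface and act through the JAK kinases. The signal ends at short DNA elements near the responding genes, chiefly the interferon-stimulated response element (ISRE) for type I interferons and the gamma-activated site (GAS) for interferon gamma. The proteins that follow degrade viral RNA, block translation and budding, sense foreign nucleic acid and raise antigen presentation, and a low tonic output of the pathway is present in many tissues without infection.

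The sex labels held on all 16 arrays, with Xist at 7.57 to 8.97 (log2) in females and 4.45 to 5.28 in males, and the Y-linked Eif2s3y at 2.24 to 2.60 and 6.04 to 7.17. Gper1 had a low signal of 2.64 to 3.11 on all arrays, and whether its probe set lies inside the deleted part is not known, so it does not check the genotype labels. The mean of 7 cardiomyocyte markers was 12.35 to 12.49 on each array. The females carry animal numbers 417 to 427 and the males 430 to 453, so sex and the order of animals cannot be told apart. Array strips and scan dates are not given in the sources used here.

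The letters of both elements were looked up in the promoters of the members. RefSeq promoter windows of assembly GRCm38.p6, from 250 bases before to 50 bases after each transcription start, matched 26 members with 33 windows. The ISRE core GAAANNGAAA, read on both strands with overlapping matches kept, stood in 12 of the 33 windows (36.4%), against 3.44% of all 32851 windows. The GAS letters TTCNNNGAA stood in 8 of the 33 (24.2%), against 8.3% of all windows. The core lay before the start in 9 members (Gbp2, Gbp3, Ifit1, Ifit3, Igtp, Irgm1, Oas3, Rsad2 and Stat2) and only after it in Ddx58, Ifih1 and Ifitm3. These matches are a description of the letters in a short window.

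The stretches below belong to members that carry the comparisons that follow, written in the direction of transcription with the matched letters in capitals. The Ifit2 window shown whole holds a GAS match, starting 241 bases before the start, and no ISRE core. A further Ifit2 window, of another transcription start, holds neither element. Bases of Ifit2 outside these windows and variants of the core letters were not searched. The lack of a match therefore does not show that Ifit2 has no ISRE. The neighbouring gene Ifit3 holds a pair of ISRE cores, starting 156 and 122 bases before the start. In Irgm1 the matches at 30 and 24 bases overlap and share their middle letters. In Igtp a GAS match starting 45 bases before the start is followed by an ISRE core at 34 bases. In Rsad2 the core starts at 120 bases and in Stat2 at 222 bases before the start.
Ifit2 (chr19:34550444-34550743, plus strand): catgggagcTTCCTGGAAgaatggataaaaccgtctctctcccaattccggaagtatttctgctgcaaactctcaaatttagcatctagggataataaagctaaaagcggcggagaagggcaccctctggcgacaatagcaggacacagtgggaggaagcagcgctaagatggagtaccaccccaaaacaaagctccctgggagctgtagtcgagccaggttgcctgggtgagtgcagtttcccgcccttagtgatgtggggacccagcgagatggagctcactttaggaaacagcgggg
Ifit3 (chr19:34583360-34583429, plus strand): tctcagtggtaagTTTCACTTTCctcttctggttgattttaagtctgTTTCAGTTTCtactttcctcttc
Rsad2 (chr12:26456543-26456592, minus strand): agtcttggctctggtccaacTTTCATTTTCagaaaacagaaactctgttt
Igtp (chr11:58199502-58199551, plus strand): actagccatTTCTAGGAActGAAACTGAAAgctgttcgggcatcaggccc
Irgm1 (chr11:48871418-48871467, minus strand): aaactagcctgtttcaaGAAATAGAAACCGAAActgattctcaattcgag
Stat2 (chr10:128270256-128270305, plus strand): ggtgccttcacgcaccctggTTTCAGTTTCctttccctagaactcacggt

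No member passed the test for GPER KO against intact in either sex. The contrasts were fitted with limma over all 17097 genes, and a gene was called at a Benjamini-Hochberg adjusted p below 0.05. In females 0 of 32 members were called, with 2 below an unadjusted p of 0.05 (Ifit2 and Parp14, both higher in GPER KO). The whole array gave 0.281% of genes called and 12.6% below the unadjusted threshold. In males 0 of 32 were called and 0 were below the unadjusted threshold, where all genes gave 0.62% and 10.1%.

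Each probe set was measured closely enough to bound these differences. The standard errors were 0.05 to 0.23 with a median of 0.12 in each sex. The 95% interval of the difference lay inside -1 to 1 on the log2 scale for 32 of 32 members in both sexes, and inside -0.5 to 0.5 for 28 members in females and 27 in males. Of the 32 probe sets, 10 had a mean below the median signal of all probe sets, 3.49, where a change in RNA can be compressed.

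**Figure D1:**
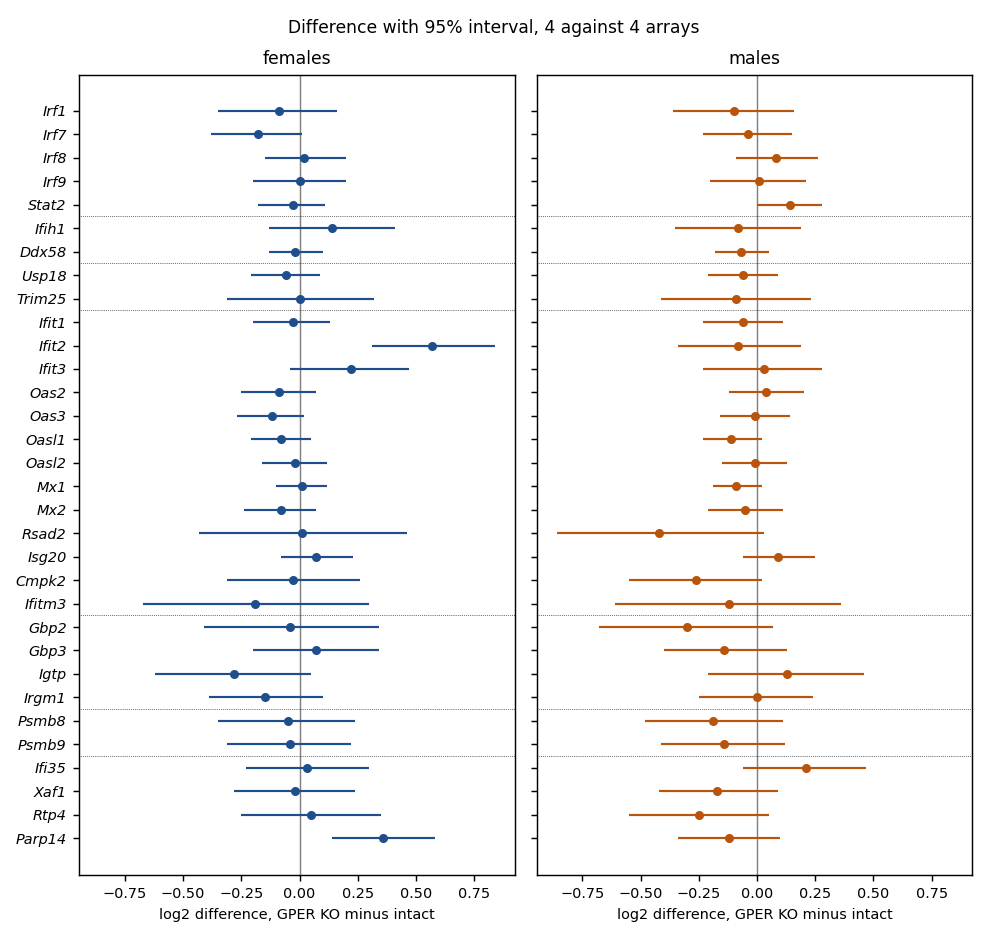
Log2 difference between GPER KO and intact cardiomyocytes (horizontal axis) for each of the 32 measured interferon-stimulated genes (vertical axis, grouped by role with dotted lines), in females on the left and males on the right. Points are limma estimates from 4 against 4 arrays and lines are 95% intervals; every interval lies inside -1 to 1, and in females Ifit2 (0.57) and Parp14 (0.36) have intervals that stay above 0.

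In females the members lay on both sides of 0, as genes in general did. A total of 13 members were higher and 19 lower in GPER KO, which puts 40.6% higher against 41.2% of all genes. Their median difference was -0.02, the same as that of all genes, and the range was -0.28 to 0.57. In males 8 members were higher and 24 lower, which puts 25.0% higher against 56.5% of all genes. Their median difference was -0.07 against 0.01 for all genes, with a range of -0.42 to 0.21. Animal 451 alone had the lowest male GPER KO value for 24 of 32 members. The sign of 13 of 32 male differences changed under at least 1 other setting. With both sexes averaged, 9 were higher and 23 lower (28.1% higher against 49.1% of all genes), and the median was -0.05.

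Ifit2, whose protein binds RNA and restrains translation in infected cells, had the smallest p of the list in females. Its log2 values were 3.32, 3.15, 3.06 and 3.37 in female intact animals 418, 421, 422 and 425, and 3.85, 4.0, 3.66 and 3.68 in female GPER KO animals 417, 419, 426 and 427. The 4 GPER KO values all lay above the 4 intact values. The difference was 0.57 (standard error 0.13, a 1.49-fold higher signal), with an adjusted p of 0.0786 from limma, so it was not called over all genes. It was called without intact animal 425 (0.62, adjusted p = 0.0421) or without male animal 451 (0.57, adjusted p = 0.0344), which enters the shared estimate of spread. Without intact animal 421 (0.55) or 422 (0.52) the adjusted p from limma was 0.243 and 0.213. All 4 female intact values lay below the median signal of all probe sets, 3.49, where a change in RNA can be compressed. The male values were 3.45, 3.94, 3.66 and 3.62 in intact animals 430, 433, 452 and 453, and 3.83, 3.53, 3.74 and 3.26 in GPER KO animals 431, 432, 444 and 451. The male groups overlapped, with a difference of -0.08 (standard error 0.13, adjusted p = 0.901 from limma).

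Parp14, an ADP-ribosyltransferase induced by interferon, showed a like separation in females. Its values were 3.57, 3.61, 3.65 and 3.69 in female intact and 3.97, 3.90, 4.17 and 3.91 in female GPER KO cells, in the same order of animals. All GPER KO values lay above all intact values, with a difference of 0.36 (standard error 0.10, adjusted p = 0.191 from limma). The male values were 4.25, 4.24, 3.86 and 3.95 in intact and 4.0, 4.14, 4.01 and 3.66 in GPER KO cells, which overlapped and differed by -0.12 (standard error 0.10). The other probe set of Parp14, with a mean signal of 2.77, gave 0.04 in females.

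Ifit3, which acts in a complex with the other Ifit proteins, was the third member whose female groups did not overlap. Its values were 4.30, 4.28, 4.23 and 4.38 in female intact and 4.40, 4.72, 4.46 and 4.47 in female GPER KO cells. The difference was 0.22 (standard error 0.12, adjusted p = 0.473 from limma), and the highest intact and lowest GPER KO values were close. In males Ifit3 gave 4.33, 4.63, 4.62 and 4.41 in intact and 4.88, 4.64, 4.40 and 4.17 in GPER KO cells, which span a wider range and overlap. Mice carry a near-identical copy, Ifit3b, so the signal may belong to either gene. Of the 32 members, 3 (9.38%) had female groups that did not overlap, all higher in GPER KO, against 5.69% of all genes, and 0 had male groups that did not overlap, against 6.21%.

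Irf7 and Igtp were the other members among the 5 smallest p in females, and both had lower means in GPER KO. Irf7, the factor that amplifies interferon alpha production, measured 3.37, 3.70, 3.54 and 3.37 in female intact and 3.31, 3.26, 3.41 and 3.27 in female GPER KO cells. Only the highest GPER KO value, that of animal 426, passed the lowest intact values, and the difference was -0.18 (standard error 0.09, adjusted p = 0.425 from limma). Igtp, an immunity-related GTPase that acts on the vacuoles of intracellular pathogens, measured 7.26, 6.82, 6.87 and 6.63 in female intact and 6.17, 6.55, 6.80 and 6.93 in female GPER KO cells. The groups overlapped and differed by -0.28 (standard error 0.16, adjusted p = 0.478 from limma). Male Igtp differed by 0.13 in the other direction, with values of 6.79, 6.90, 6.89 and 6.94 in intact and 7.13, 7.30, 6.87 and 6.73 in GPER KO cells. Irf7 in males measured 3.27, 3.68, 3.48 and 3.34 in intact and 3.41, 3.48, 3.48 and 3.25 in GPER KO cells and differed by -0.04.

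The 5 members with the smallest p in males were Stat2, Rsad2, Cmpk2, Rtp4 and Oasl1, and only Stat2 had a higher mean in GPER KO. Stat2, the transcription factor that links the type I receptor to the ISRE, measured 4.11, 4.19, 4.12 and 4.01 in male intact and 4.32, 4.30, 4.20 and 4.17 in male GPER KO cells. The lowest GPER KO value, of animal 451, lay just under the highest intact value, and the difference was 0.14 (standard error 0.07, adjusted p = 0.51 from limma). In females Stat2 measured 4.18, 4.23, 4.21 and 4.35 in intact and 4.15, 4.38, 4.23 and 4.08 in GPER KO cells, with a difference of -0.03. The other probe set of Stat2, with a mean signal of 2.98, gave 0.06 in males.

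Rsad2, which encodes viperin, an enzyme that makes a chain-terminating nucleotide, had the largest male difference of the list in size. It measured 6.09, 6.23, 6.07 and 5.83 in male intact and 5.99, 5.75, 6.06 and 4.75 in male GPER KO cells. Animal 451 lay far below the other GPER KO animals, which were within or close to the intact range. The difference was -0.42 (standard error 0.21, adjusted p = 0.535 from limma), and it was -0.12 without animal 451. The female groups overlapped, at 5.45, 5.60, 5.56 and 5.46 in intact and 5.21, 5.76, 5.61 and 5.54 in GPER KO cells, with a difference of 0.01. The other probe sets of Rsad2 gave -0.23 and -0.39 in males, with an unadjusted p of 0.0129 and 0.0219 and an adjusted p over all probe sets of 0.38 and 0.454 from limma.

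Cmpk2, a mitochondrial nucleotide kinase encoded next to Rsad2, measured 2.93, 3.44, 3.24 and 3.67 in male intact and 3.30, 2.97, 3.13 and 2.83 in male GPER KO cells. The difference was -0.26 (standard error 0.13, adjusted p = 0.545 from limma), with overlap through the low intact animal 430 and the high GPER KO animal 431. In females Cmpk2 gave 2.97, 3.07, 3.04 and 2.91 in intact and 2.75, 3.16, 3.07 and 2.91 in GPER KO cells, a difference of -0.03. Rtp4, a receptor transporter protein with antiviral activity, measured 4.28, 4.71, 4.44 and 4.37 in male intact and 4.44, 4.21, 4.34 and 3.80 in male GPER KO cells. These overlapped and differed by -0.25 (standard error 0.14, adjusted p = 0.609 from limma), and by -0.12 without animal 451. In females Rtp4 gave 3.97, 4.11, 4.12 and 4.01 in intact and 3.91, 4.52, 4.01 and 3.97 in GPER KO cells, with animal 419 above the rest. The other probe sets of Cmpk2 and Rtp4, with mean signals of 2.85 and 2.59, gave -0.06 and -0.04 in males.

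Oasl1, a relative of the oligoadenylate synthetases that restrains Irf7 translation, measured 3.53, 3.49, 3.48 and 3.57 in male intact and 3.36, 3.33, 3.58 and 3.39 in male GPER KO cells. The GPER KO animal 444 lay above all intact values and the other 3 GPER KO animals below all of them, and the difference was -0.11 (standard error 0.06, adjusted p = 0.617 from limma). The female values were 3.43, 3.49, 3.57 and 3.64 in intact and 3.42, 3.43, 3.48 and 3.47 in GPER KO cells, a difference of -0.08. Averaged over both sexes, 0 members were called and 2 were below an unadjusted p of 0.05 (6.25%), where all genes gave 1.36% called and 11.7% below that threshold. These were Ifit2, at 0.25 (adjusted p = 0.242 from limma), and Oasl1, at -0.09 (adjusted p = 0.416), followed by Irf7 at -0.11 (adjusted p = 0.584).

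**Figure D2:**
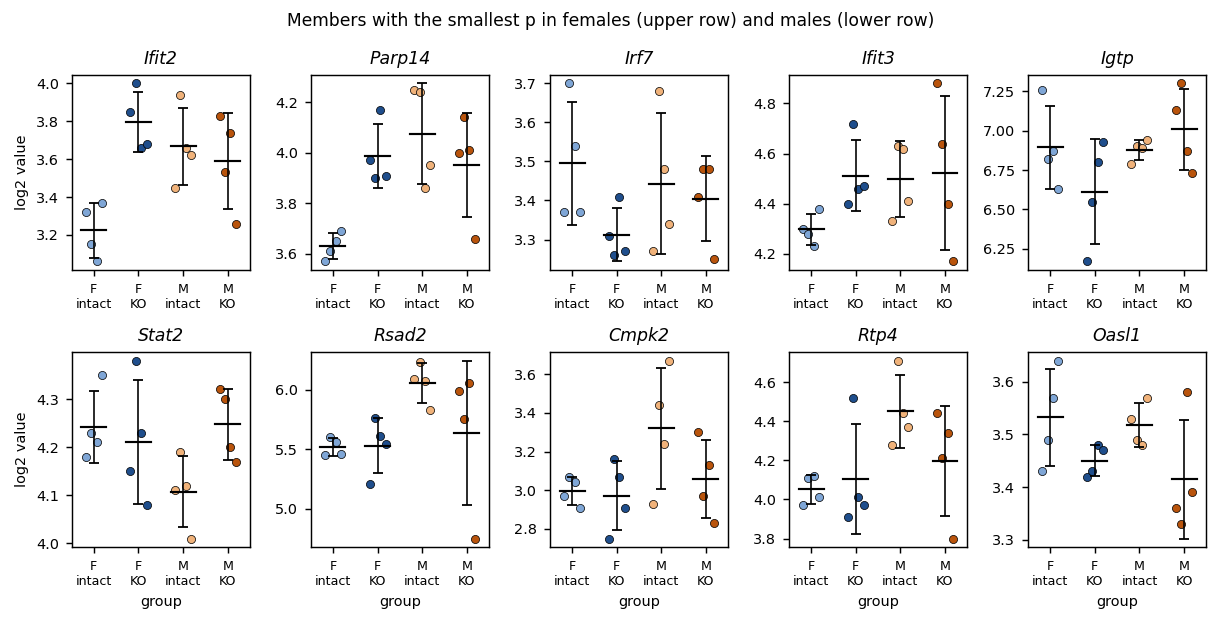
Log2 values (vertical axis) of the 5 members with the smallest p in females (upper row) and in males (lower row), in female (F) and male (M) intact and GPER KO cardiomyocytes, with 1 point per animal, a horizontal line at the mean and bars of 1 SD (n = 4). The vertical axes differ between panels and do not start at 0; Ifit2, Parp14 and Ifit3 separate in females, and a single low animal (451, at 4.75) sets the spread of Rsad2 in male GPER KO cells.

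By role, the members of most groups lay on both sides of 0 in females. The 5 transcription factors (Irf1, Irf7, Irf8, Irf9 and Stat2) differed by -0.18 to 0.02 in females and -0.10 to 0.14 in males. The RNA sensors Ifih1 (MDA5) and Ddx58 (RIG-I) gave 0.14 and -0.02 in females and -0.08 and -0.07 in males. Usp18, which removes the ubiquitin-like ISG15 from proteins, and Trim25, a ubiquitin ligase that activates RIG-I, gave -0.06 and 0.00 in females and -0.06 and -0.09 in males.

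The 13 antiviral effectors, among them the Ifit, Oas and Mx genes, had 5 members higher and 8 lower in female GPER KO cells, with a median of -0.03. In males 3 were higher and 10 lower, with a median of -0.06. Ifitm3, a membrane protein that blocks viral entry, had the highest probe signal of the list, with 7.52 to 8.33 in females and 7.69 to 8.71 in males, and differed by -0.19 in females and -0.12 in males (standard error 0.23 in each). Mx1, a GTPase that traps viral components, had the lowest signal, with a mean of 2.46, at percentile 9.8 of all probe sets, and differed by 0.01 and -0.09. Signals of different probe sets do not rank the genes by RNA amount.

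The GTPases driven mainly by interferon gamma (Gbp2, Gbp3, Igtp and Irgm1) differed by -0.28 to 0.07 in females and -0.30 to 0.13 in males. Gbp2 is read by a probe set whose suffix marks possible cross-hybridisation within its family, and its other probe set gave the same -0.30 in males. The immunoproteasome subunits Psmb8 and Psmb9, which shape peptides for antigen presentation, gave -0.05 and -0.04 in females and -0.19 and -0.14 in males, with adjusted p-values of 0.731 to 0.928 from limma. Of the remaining members, Ifi35, a modulator of innate signalling, gave 0.03 in females and 0.21 in males, and Xaf1, a pro-apoptotic protein, gave -0.02 and -0.17. The other probe sets of Psmb8 and Xaf1, with mean signals of 2.34 and 2.94, gave -0.05 and 0.08 in males.

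**Figure D3:**
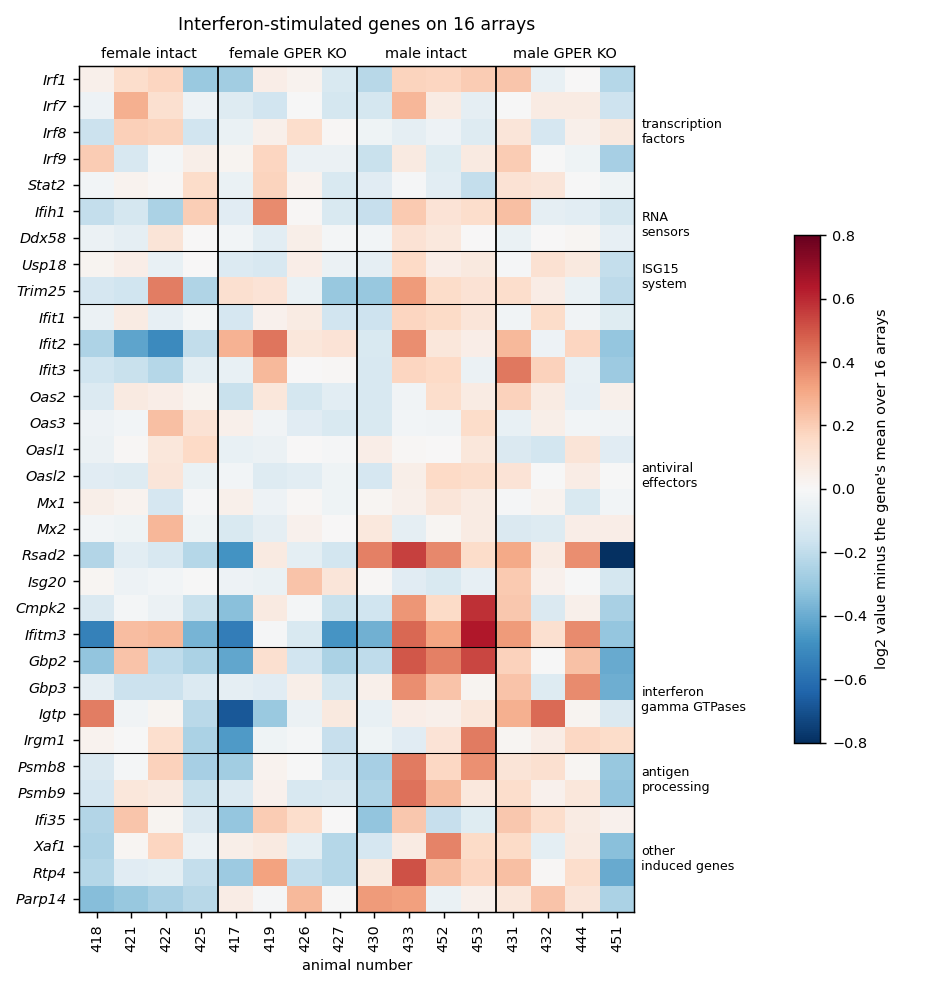
Log2 value of each measured interferon-stimulated gene (rows, grouped by role) on each of the 16 arrays (columns, by animal number) after subtraction of the gene's mean over all arrays; red is above and blue below that mean. The columns of male intact animal 430 and male GPER KO animal 451 are blue for most genes, and Ifit2 and Parp14 are blue in all 4 female intact animals.

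Within a group, many members were low or high in the same animal. The mean log2 value of the 32 members was 4.25, 4.34, 4.36 and 4.25 in female intact and 4.20, 4.39, 4.35 and 4.25 in female GPER KO cells. It was 4.26, 4.53, 4.46 and 4.47 in male intact and 4.48, 4.39, 4.42 and 4.16 in male GPER KO cells. Genotype groups overlapped in both sexes, with means of 4.30 ± 0.06 against 4.30 ± 0.09 (SD, n = 4) in females and 4.43 ± 0.12 against 4.36 ± 0.14 (SD, n = 4) in males, intact first. The mean of all genes stayed at 4.70 to 4.74 on every array.

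Single animals weighed heavily in the male groups. Animal 430 had the lowest male intact value for 23 of 32 members (71.9%), against 31.6% of all genes, and animal 451 the lowest male GPER KO value for 24 of 32 (75.0%), against 24.9%. Without animal 451 the male difference in list level went from -0.07 to 0.00, without animal 430 it was -0.13, and without both animals -0.06. In females animal 417 had the lowest GPER KO value for 15 members (46.9%, against 28.3% of all genes), and animal 419 the highest for 16 (50%, against 26.9%). The within-group SD of single members had a median of 0.18, against 0.11 over all genes, and was highest for Ifitm3 (0.37, percentile 97.8 of all genes) and Rsad2 (0.34, percentile 97.1).

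Marker means of several other cell types were also lowest in animals 430 and 451 within their groups. Their part in the member levels was not tested. The mean of 14 endothelial markers was 5.57 in animal 430, against 5.97 to 6.23 in the other male intact animals, and 5.46 in animal 451, against 5.55 to 5.90 in the other male GPER KO animals. Fibroblast and mural marker means were also lowest in these 2 animals within their groups, at 5.04 and 5.84 in animal 430 and 5.01 and 5.77 in animal 451. The mean of 16 macrophage markers was likewise lowest in both, at 4.61 and 4.96. The mean of 2 erythroid markers ran otherwise, at 7.85 in animal 430, above the other male intact animals (6.68 to 7.54), and 6.80 in animal 451, where animal 444 was lowest (6.51). The cardiomyocyte marker mean was the highest of its group in animal 430 (12.49) and the lowest of its group in animal 451 (12.35). The lists did not run together in every animal. Among female GPER KO animals, 419 had the highest member mean (4.39) and the highest endothelial mean (5.78). Its macrophage mean of 4.83 lay below those of animals 426 and 427 (5.04 and 5.03). In such bulk samples, fewer cells of a type and less RNA per cell cannot be told apart.

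The marker lists were also read by genotype. For all genes, limma called 0.281% in females and 0.62% in males, and 12.6% and 10.1% were below an unadjusted p of 0.05. Of all genes 41.2% in females and 56.5% in males were higher in GPER KO. All 14 endothelial markers were lower in GPER KO in each sex with 0 called by limma, 1 of them below an unadjusted p of 0.05 in females and 2 in males, and with list means of 5.58 against 5.85 in females and 5.70 against 5.96 in males. Of the 16 macrophage markers 15 were higher in GPER KO in each sex, with 0 called in females (5 below an unadjusted p of 0.05) and 5 in males, and the list means ranged from 4.76 to 5.04 against 4.48 to 4.72 in females and 4.96 to 5.59 against 4.61 to 5.16 in males. Fibroblast markers had 8 of 10 higher in females and 6 of 10 in males with 0 called (1 and 2 below an unadjusted p of 0.05), and list means of 5.35 against 5.09 and 5.50 against 5.27. The 2 erythroid markers had means of 6.54 against 7.16 in females and 7.18 against 7.36 in males, and the 4 mural markers 6.28 against 6.33 and 6.24 against 6.34, with 0 called in either list and 1 erythroid marker in females below an unadjusted p of 0.05. Endothelial cells and macrophages can express interferon-stimulated genes. Marker means of T and NK cells (3.66 to 3.82), B cells (3.60 to 3.79), dendritic cells (4.06 to 4.36) and neutrophils (3.18 to 3.42) spanned narrow ranges over the 16 arrays.

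**Figure D4:**
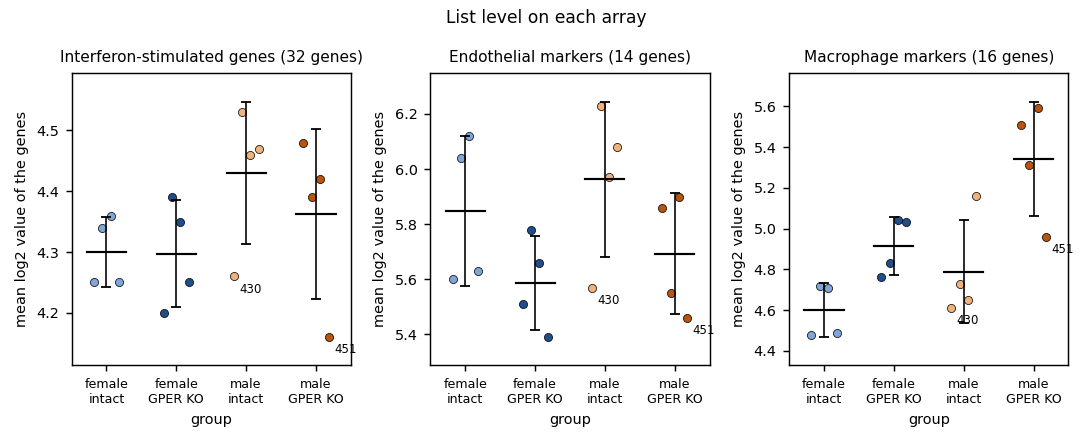
Mean log2 value per array (vertical axis) of the interferon-stimulated genes, 14 endothelial markers and 16 macrophage markers in the 4 groups (horizontal axis), with 1 point per animal, a horizontal line at the group mean and bars of 1 SD (n = 4). The vertical axes differ between panels and do not start at 0; animals 430 and 451 are the lowest of their groups in each panel, at 4.26 and 4.16 for the interferon-stimulated genes.

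Whether the GPER KO effect differed between the sexes was asked with the interaction, the male difference minus the female difference. It called 0 of 32 members and 0.0% of all genes in limma, with 2 members (6.25%) below an unadjusted p of 0.05, against 11.0% of all genes. These were Ifit2, at -0.65 (standard error 0.18, adjusted p = 0.426), and Parp14, at -0.48 (standard error 0.15, adjusted p = 0.426). Igtp followed at 0.41 (standard error 0.22, adjusted p = 0.506). The other probe set of Parp14, with a mean signal of 2.77, gave an interaction of -0.06. Over 23 other settings the interaction was -0.73 to -0.54 for Ifit2 and -0.55 to -0.27 for Parp14. The interaction shares the values of both sexes given above and adds no animals to them.

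The sexes were also compared within a genotype. Among intact animals, 22 of 32 members were higher in males (68.8%, against 42.2% of all genes), with a median of 0.08 against -0.02. No member was called, with 0 of 32 against 0.579% of all genes, and 7 members (21.9%) were below an unadjusted p of 0.05, against 17.5% of all genes. All 7 were higher in males: Parp14 at 0.45 (adjusted p = 0.059 from limma), Ifit2 at 0.44 (0.101), Rtp4 at 0.40 (0.17), Rsad2 at 0.54 (0.201), Gbp2 at 0.44 (0.208), Cmpk2 at 0.32 (0.228) and Gbp3 at 0.30 (0.245). The other probe sets of Parp14, Rtp4 and Cmpk2, with mean signals of 2.77, 2.59 and 2.85, gave -0.01, -0.06 and -0.08. Those of Gbp2 (0.51) and Rsad2 (0.16 and 0.50) were higher in males. In 5 of the 32 (15.6%), namely Parp14, Ifit2, Rtp4, Rsad2 and Gbp3, the sexes did not overlap, against 8.44% of all genes. The female intact animals are the low group for Ifit2 and Parp14 in both this comparison and that of the female genotypes, which share them.

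Among GPER KO animals, 23 of 32 members were higher in males (71.9%, against 55.9% of all genes), with a median of 0.05 against 0.02. Again 0 were called, against 0.0702% of all genes, and 2 (6.25%) were below an unadjusted p of 0.05, against 11.3%. Igtp differed by 0.40 (adjusted p = 0.358 from limma), Irgm1, a GTPase of the same family, by 0.26 (adjusted p = 0.405) and Ifitm3 by 0.42 (adjusted p = 0.501). Irgm1 and Oasl2 did not overlap between the sexes, which is 6.25% of the members against 6.39% of all genes. Sex and the order of animals cannot be told apart in either comparison.

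The rest of the pathway was read from lists of ligands, receptors, sensors and further induced genes. Of 8 measured interferon ligands, 0 were called in females or males by limma and 0 were below an unadjusted p of 0.05. All genes gave 0.281% and 0.62% called, and 12.6% and 10.1% below that threshold. The mean of the ligand probe sets stayed at 2.94 to 3.05 on every array, among the low signals. The median difference was 0.03 in females and 0.05 in males. The smallest p belonged to Ifnab in females, at -0.13 (adjusted p = 0.542), and Ifna1 in males, at 0.19 (adjusted p = 0.527). The interferon alpha genes are near-identical copies, so their probe sets may read several of them.

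Among 14 genes of receptors and signalling, 0 were called in either sex. In limma 1 in females and 3 in males were below an unadjusted p of 0.05, against 12.6% and 10.1% of all genes. Ifngr2, a chain of the interferon gamma receptor, gave -0.20 in females (adjusted p = 0.264), and Jak1, the kinase shared by both receptor types, gave -0.24 in males (adjusted p = 0.307) and -0.15 in females (adjusted p = 0.526). Jak2, the kinase of the interferon gamma receptor, gave -0.23 in males (adjusted p = 0.409). Socs3, a feedback inhibitor of JAK signalling, differed in its GPER KO effect between the sexes by 0.68 (standard error 0.25, adjusted p = 0.426), which did not pass the test.

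Among 15 genes of nucleic acid sensing, 0 were called in either sex. In each sex 3 were below an unadjusted p of 0.05 in limma, against 12.6% of all genes in females and 10.1% in males. Eif2ak2 (PKR), which halts translation on double-stranded RNA, gave 0.22 in females (adjusted p = 0.306). Myd88, the adaptor of most Toll-like receptors, gave 0.15 in males (adjusted p = 0.426) and 0.16 in females (adjusted p = 0.327). Tlr7, an endosomal sensor of single-stranded RNA, gave 0.20 in males (adjusted p = 0.347).

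A wider set of 54 other interferon-induced genes had a median difference of -0.01 in females and -0.03 in males, against -0.02 and 0.01 for all genes. In females 24 were higher and 30 lower, where 41.2% of all genes were higher. In males 21 were higher and 33 lower, where 56.5% of all genes were higher. In females 0 of the 54 were called by limma, against 0.281% of all genes. Below an unadjusted p of 0.05 were 4 in females and 6 in males, against 12.6% and 10.1% of all genes. In males and over both sexes averaged 1 of the 54 was called, against 0.62% and 1.36% of all genes. It was Psmb10 in both, with a higher mean in GPER KO. Psmb10 encodes the third catalytic immunoproteasome subunit, beside Psmb8 and Psmb9. Its values were 6.91, 7.25, 7.11 and 7.15 in male intact and 7.55, 7.5, 7.34 and 7.40 in male GPER KO cells, and 7.16, 7.32, 7.18 and 7.15 in female intact and 7.35, 7.49, 7.45 and 7.38 in female GPER KO cells.

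All GPER KO values of Psmb10 lay above all intact values of the same sex. Of all genes, 5.69% in females and 6.21% in males had groups without overlap, in either direction. The difference was 0.34 in males (standard error 0.07, adjusted p = 0.041 from limma), 0.22 in females (standard error 0.07, adjusted p = 0.236) and 0.28 with both sexes averaged (standard error 0.05, adjusted p = 0.00909). The male call was lost in 14 of 24 other settings, among them the male arrays alone (adjusted p = 0.129) and without intact animal 430 (0.28, adjusted p = 0.131), whereas the call over both sexes was kept in 23 of 23. Its partners Psmb8 and Psmb9 had lower means in GPER KO in both sexes, as given above, but the other probe sets of Psmb9 gave 0.21 (unadjusted p = 0.0307, adjusted p = 0.515 over all probe sets) and 0.02 in males, and its male difference turned positive, at 0.03, with the mean of its probe sets.

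The other genes of this set with the smallest p were not called. Psme1, a subunit of the proteasome activator, gave -0.22 in females (adjusted p = 0.26 from limma). Between the sexes in intact animals, Parp9, a partner of Parp14 in interferon signalling, was 0.30 higher in males (adjusted p = 0.0562).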

How the data were processed

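Cardiomyocyte RNA of 16 mice, 4 per group, was measured on 1 array each. The authors deposited log2 values per probe set, made per the labels with RMA and Partek, with no version given. Array medians were 3.47 to 3.51, and 4 arrays per group limit the precision. Symbols of the 28898 probe sets with 1 gene (of 45141, with 551 naming several and 15692 none) were updated through Entrez identifiers to RefSeq (GRCm38.p6, 28689 matched), giving 17097 genes.

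R 4.3.3 with limma 3.58.1 (lmFit, eBayes) fitted 4 group means without a filter, with Benjamini-Hochberg adjustment over all genes at 0.05. On simulated data, changes of 0.5 and 1 (log2) were added to genes drawn from all 17097, with independent noise at each gene's own spread. Of 100 genes each, 78 and 99 were recovered in females, and 77 and 100 in males, with 7 and 13 false calls. The members had a wider within-group SD (median 0.18, against 0.11 for all genes), and many varied together within animals. These recoveries therefore do not apply to the list.

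Values in every array are given for called members and for the 5 with the smallest p in each sex, and differences for the 3 with the smallest p in other contrasts. For pathway lists the called genes are given, with only some of the genes of smallest p in each contrast. Members with the highest and lowest signal were also named. Those below an unadjusted p of 0.05, without overlap or named by role were added after their values were seen. Members and lists were chosen with earlier results of these data known. Alternatives were the mean of probe sets, a filter above percentile 40 on at least 4 arrays, quantile normalization, median centring, array weights, trend and robust eBayes, arrays of 1 sex, each array left out, and, chosen after seeing the data, animals 430 and 451 left out together.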

Additional observations from a re-analysis of the deposited data

Results flagged for a closer look

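Rtp4 in female GPER KO cells had 1 animal far from the others. Animal 419 measured 4.52 (log2) and the other 3 animals 3.91 to 4.01, and the gap was 0.83 of the group's whole range. It was the only such case in 44 groups of 4 arrays examined, where chance gives about 1 in 20 groups.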

How the results depend on the processing

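Of the members with the smallest p in a comparison, none changed direction in that comparison under the alternatives run. Smaller differences did: 16 of 32 members in females, all with differences of at most 0.05 in size, and 13 of 32 in males, of at most 0.14, changed sign under at least 1 alternative. Ifit2 in males ranged from -0.16 to 0.03 and Rsad2 in females from -0.06 to 0.12. The count of called members stayed at 0 in males, in both sexes averaged, in the interaction and among GPER KO animals. In females it ranged from 0 to 1 when each array was left out. The called member was Ifit2, without intact animal 425 (0.62, adjusted p = 0.0421 from limma) and without male GPER KO animal 451 (0.57, adjusted p = 0.0344). It was 1, again Ifit2, without animals 430 and 451 together (adjusted p = 0.0281). Over 24 alternatives the adjusted p of Ifit2 in females was 0.0281 to 0.243. Between the sexes in intact animals the count was 1 with trend and robust eBayes (Parp14, 0.45, adjusted p = 0.0497) and ranged from 0 to 2 when each array was left out. It was 1 without female intact animal 425 (Parp14, adjusted p = 0.0479) and 2 without male GPER KO animal 451 (Parp14, adjusted p = 0.0473, and Rsad2). The adjusted p of Parp14 there was 0.0473 to 0.178 over 23 alternatives, and its difference was 0.22 with the mean of its probe sets. The cause was not tested. The median member difference ranged from -0.06 to 0.00 in females and from -0.10 to -0.02 in males. In males Psmb10 was 0.28 to 0.39 higher over 24 alternatives, with an adjusted p of 0.0162 to 0.169. Leaving out 1 array ended that call for intact animals 430, 452 and 453 (adjusted p = 0.131, 0.118 and 0.0622) and GPER KO animals 431, 432 and 451 (0.147, 0.13 and 0.0669). It did so too for females 418, 417, 426 and 427 (0.0513, 0.0514, 0.0544 and 0.0595). No paired analysis was possible because animal numbers are unique and the groups share none. For members below the median signal of 3.49, a change in RNA can be compressed.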
